A study of Rattus norvegicus with 36 samples.

Results

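The protein genes of the cytosolic ribosome were examined in rat liver after exposure to the brominated flame retardant hexabromocyclododecane (HBCD). Members were all gene symbols of the array's annotation that begin with Rpl or Rps followed by a digit, together with Rplp0, Rplp1, Rplp2 and Rpsa, leaving out the Rps6k kinases. The rule found 50 symbols among the 14217 that had a probe set of their own, 34 of the large and 16 of the small ribosomal subunit. Where a symbol had more than 1 probe set, as 6 members did, the one with the highest mean over the 36 arrays stood for it. Symbols were those of the platform annotation and were not updated.

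Male Harlan Sprague Dawley rats, 7 weeks old at the start, received corn oil alone (vehicle) or HBCD in corn oil by gavage, at 5 ml/kg, on each of 5 days. The highest HBCD dose was 641 mg/kg, and the others were 64.1, 6.41, 0.641 and, at the low end, 0.06 mg/kg. RNA came from the left liver lobe 1 day after the last dose, and each of the 6 groups had 6 arrays. Levels are log2 probe set signals from a fixed mass of labelled RNA per array, so a change in total RNA per cell was not measured. In whole liver, fewer cells of a type and less RNA per cell cannot be told apart. The labels number the replicates without saying that each came from its own rat, so p-values rest only on the differences among these arrays, and part of that spread may be technical.

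The cytosolic ribosome is built from a small subunit, which reads the mRNA, and a large subunit, which forms the peptide bond. Its protein genes are transcribed at high rates in nearly all cells, and several serve as reference genes in quantitative PCR. Their mRNAs begin with a run of pyrimidines, the terminal oligopyrimidine or TOP tract, through which mTORC1 and the RNA-binding protein Larp1 control their translation.

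This run of pyrimidines was looked for in the annotated start regions, because it is a feature of the gene family that the selection did not use. RefSeq promoter sequences of rat assembly GRCr8 were matched by gene ID for 41 of the 50 members, and 9 had no entry. The stretches printed here hold the 15 bases before and the 15 bases from the annotated start, 5′ to 3′ on the gene's own strand, with the longest pyrimidine run that reached into the window in capitals. A first set shows high-level members with long runs.
Rpl27a, chr1:172974558-172974587, plus strand: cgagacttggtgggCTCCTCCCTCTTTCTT
Rps23, chr2:23814502-23814531, plus strand: tgggtccttcctgCCTCTCTTCTCTCTTTC
Rpl34, chr2:221962269-221962298, minus strand: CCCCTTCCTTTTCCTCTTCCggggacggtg
Rpl22, chr5:168117946-168117975, plus strand: gtagtgcgCCCCCCTCCCTTTCTgcctcct
Rpl19, chr10:83519049-83519078, plus strand: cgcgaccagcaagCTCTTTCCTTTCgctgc
Rplp0, chr12:46718376-46718405, minus strand: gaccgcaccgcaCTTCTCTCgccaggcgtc
A second set shows high-level members whose annotated start had no run of 8 pyrimidines, and paralogs with mean levels under 10.
Rpl26, chr10:54109677-54109706, plus strand: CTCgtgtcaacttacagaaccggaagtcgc
Rpl41, chr7:1563483-1563512, minus strand: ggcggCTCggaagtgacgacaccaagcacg
Rpl7l1, chr9:21695703-21695732, plus strand: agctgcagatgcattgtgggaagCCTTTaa
Rpl3l, chr10:14258431-14258460, plus strand: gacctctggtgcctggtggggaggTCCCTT
Rpl26l1, chr10:17029014-17029043, minus strand: aaatgtcaTTTCCgggcctgcgcacacacc
A run of at least 8 pyrimidines lay in this window in 23 of the 41 members (56.1%), against 11.4% of all 33469 promoters of the table. The share was 62.5% (20 of 32) among members with a mean level of at least 10 and 33.3% (3 of 9) among the others. Those 3 were Rpl28, Rps13 and Rps4y2. Probe sets listed under several symbols held Rps13 at 12.14 and Rpl28 at 11.64. The split by level thus depends on which probe set stood for a symbol, and a link of run and level was not tested. The first base was a pyrimidine inside a run of at least 5 in 43.9% of members and in 12% of all promoters. The annotated start is 1 base per gene in RefSeq, and a start set a few bases away gives another window.

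Motifs were searched in the window from 250 bases before to 50 bases after the start, on both strands, as letter matches only. The letters GGGCGG, bound by Sp1, were found in 61% of members and in 33.1% of all promoters. CCGGAAG, bound by ETS factors such as GABP, was found in 24.4% against 8.75%, and AAGATGG, bound by YY1, in 19.5% against 7.01%. No string holds another, but CCGGAAG can share its last letters AAG with AAGATGG. Member promoters had a median GC content of 56.3%, against 51.7% over all promoters. The 100 bases just before the annotated start of Rpl41 are printed because they hold an ETS and an Sp1 string together, both in capitals.
Rpl41, chr7:1563498-1563597, minus strand: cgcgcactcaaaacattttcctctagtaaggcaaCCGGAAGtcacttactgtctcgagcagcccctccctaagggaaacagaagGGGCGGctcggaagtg

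The array signals split the members into 38 with high and 12 with lower levels. The 38 had means over 36 arrays from 11.06 (Rpl14) to 13.06 (Rps29), and each lay above at least 96.6% of all symbols. The array medians over all probe sets lay between 4.83 and 4.903. Rps29 and Rps23 of the small subunit and Rpl26, Rpl27a and Rpl41 of the large subunit had the highest signals, with means of 13.06, 12.75, 12.79, 12.78 and 12.57. Levels of different probe sets depend on their probes and give no order of transcript abundance.

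The label of a uniformly high group did not hold for the other 12 symbols. They include the paralogs Rps27l (mean 8.71), Rpl7l1 (8.60), Rps4y2 (7.46), Rpl26l1 (4.64), Rpl3l (3.42) and Rpl39l1 (3.09), and the pseudogene symbols Rpl37-ps2 (4.53) and Rps4x-ps1 (2.14). Rpl3l is a muscle form of Rpl3, and Rps27l is a p53 target. The remaining 4 were core ribosomal proteins, Rpl39 (5.46), Rps13 (3.96), Rpl30 (3.65) and Rpl28 (2.83). Probe sets listed under several symbols, which no single gene could be given, held Rps13 among their symbols at 12.14 and Rpl28 at 11.64. A low signal of the probe set standing for a symbol is thus no measure of that gene's transcript as a whole.

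**Figure D1:**
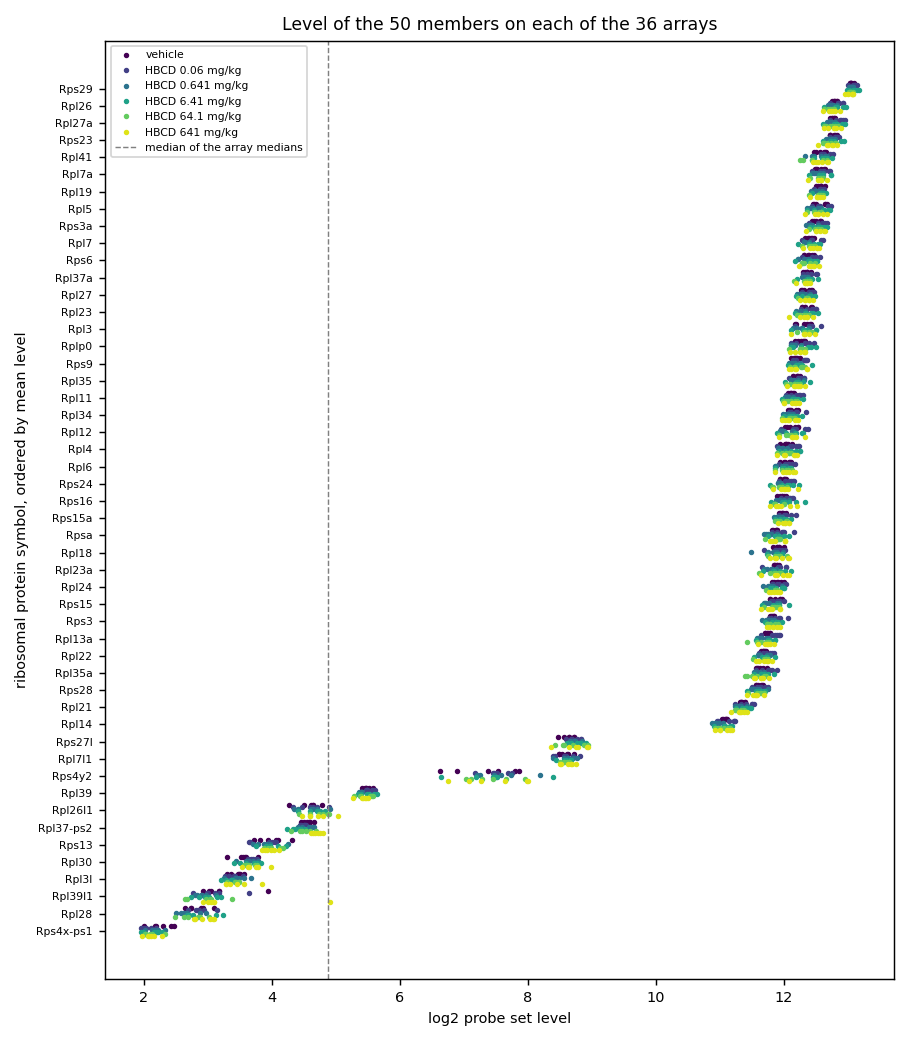
Log2 signal of the probe set standing for each of the 50 symbols (rows, ordered by mean) on each of the 36 arrays (points, coloured by dose group), with the median of the array medians as a dashed line. The 38 members from Rps29 to Rpl14 sit between 10.88 and 13.17 on every array, and the other 12 lie lower.

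No member was called at any dose in limma, where called means an adjusted p under 0.05 against vehicle with Benjamini-Hochberg adjustment over all 31042 probe sets. The share of all probe sets called was 0% at 0.06, 0.641 and 6.41 mg/kg, 0.0419% at 64.1 mg/kg (13 probe sets) and 1.65% at 641 mg/kg (511 probe sets). At an unadjusted p under 0.05 there were 1, 0, 1, 1 and 3 members in order of dose, where 4.17%, 4.76%, 4.13%, 5.94% and 11.4% of all probe sets passed. The smallest adjusted p of a member at 641 mg/kg was 0.287. No call among 50 members is near that background even at the top dose.

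At 641 mg/kg the 50 log2 differences from vehicle ran from -0.15 (Rps4x-ps1) to 0.17 (Rpl30), with a median of 0.01, beside -0.01 over all probe sets. Of the members 29 lay above and 21 below 0. At the 4 lower doses the medians were 0.05, -0.06, 0.03 and -0.03, from the lowest dose up. The largest differences at any dose were at 0.641 mg/kg, -0.29 (Rpl39l1) and 0.22 (Rps4y2), neither of them called. With 1 array left out, that of Rpl39l1 ran from -0.35 to -0.15. Its vehicle group held 1 high array, at 3.94 where the others had 2.92 to 3.18. The median of the 38 high-level members was 0.06, -0.06, 0.03, -0.03 and 5.78e-04 in order of dose. Their array deviations moved together, as given further on, so the number of members on 1 side of 0 at a dose is not a count of independent observations. At 0.06 mg/kg 37 of the 38 were above 0, at 0.641 mg/kg 1 was, at 6.41 mg/kg 35, at 64.1 mg/kg 4 and at 641 mg/kg 20, so the sign alternated along the doses. Among all probe sets the share above 0 was 48.2%, 48.9%, 49.4%, 51.6% and 46.9%.

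All 38 high-level members had a 95% interval of the moderated fit within 1.2-fold of vehicle, in either direction, at all 5 doses. The same was true of 68.8% of the 1294 probe sets with a mean of at least 10 and of 38.3% of all probe sets. Because the 38 shared their array deviations, as given further on, their intervals are not 38 independent results to set against these shares. At 641 mg/kg their intervals reached at most 1.14-fold up (Rpl23a) and 1.14-fold down (Rps15). The widest reach at any dose was 1.18-fold up, at 0.06 mg/kg, and 1.19-fold down, at 64.1 mg/kg. Rpl41 had the interval that went lowest at 64.1 mg/kg, with a fold change of 0.922 (95% interval 0.839 to 1.01). Widened by Bonferroni over all 250 intervals, 20 of the 38 stayed within 1.2-fold at 641 mg/kg and 8 at 0.06 mg/kg, while all 38 stayed within 1.5-fold at each dose.

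Over all 50 members, 44, 45, 44, 45 and 43 had an interval within 1.2-fold in order of dose, against 68.6%, 67.8%, 68.7%, 67.3% and 61.9% of all probe sets. Of the 50, 40 kept their intervals within 1.2-fold at every dose, 48 within 1.5-fold and 50 within 2-fold. Among all probe sets 95.8% lay within 1.5-fold and 99.1% within 2-fold at every dose, and among those with a mean of at least 10 the shares were 93.9% and 98.1%, so the wider limits do not set the members apart from other probe sets. The 10 members whose intervals went beyond 1.2-fold at some dose were Rps27l, Rps4y2, Rpl26l1, Rpl37-ps2, Rps13, Rpl30, Rpl3l, Rpl39l1, Rpl28 and Rps4x-ps1, all with mean levels under 10. The intervals of Rps4y2 and Rpl39l1 also went beyond 1.5-fold. The median half-width of an interval over the 50 members was 0.12 on the log2 scale, or 1.08-fold.

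**Figure D2:**
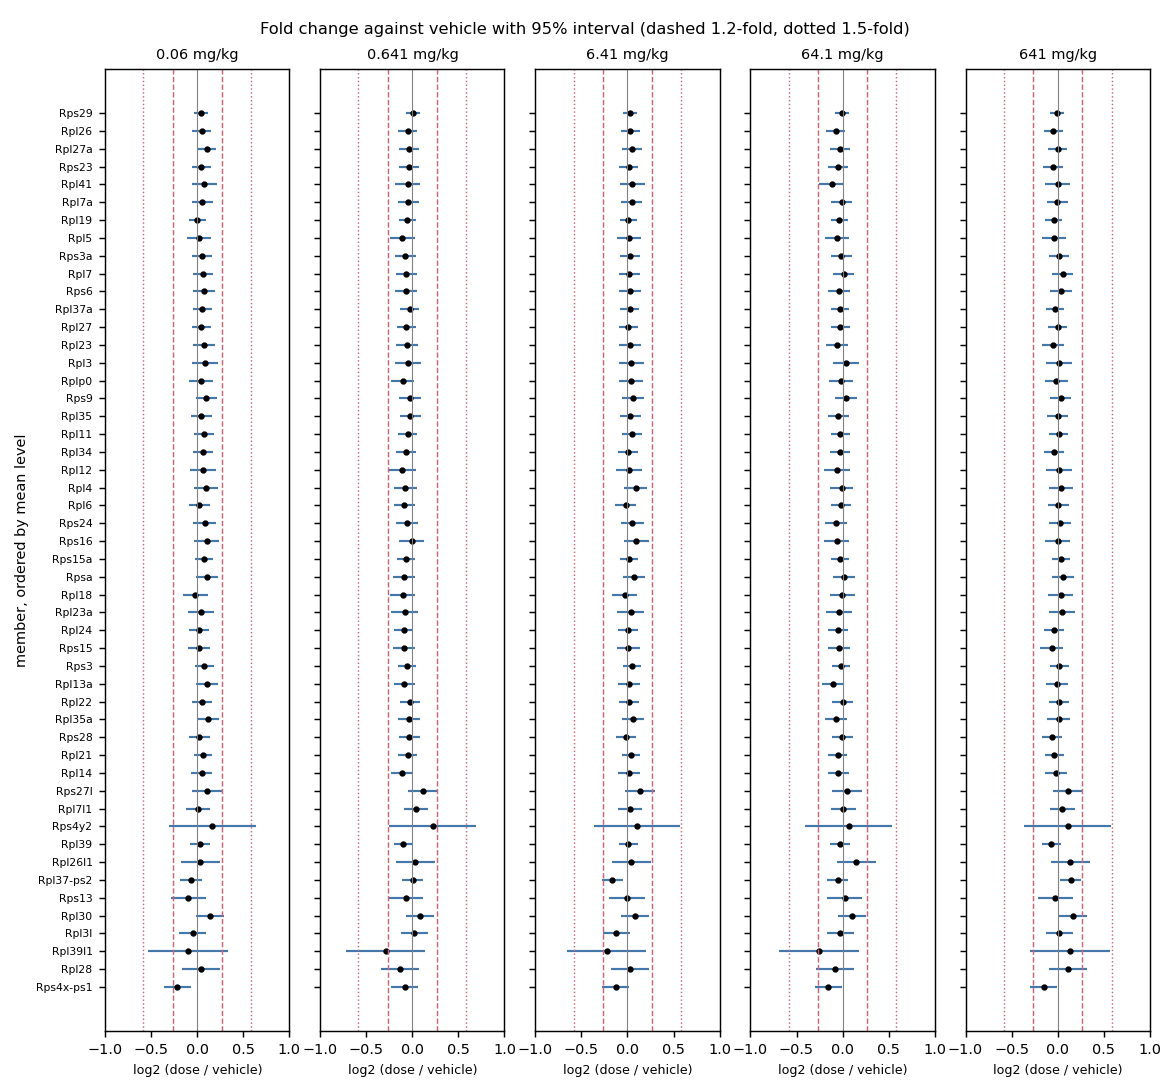
Log2 fold change against vehicle (points) with its 95% interval (bars, n = 6 arrays per group) for the 50 members, ordered by mean level, in 1 panel per dose, with dashed lines at 1.2-fold and dotted lines at 1.5-fold. Bars of the 38 high-level members lie inside the dashed lines in all 5 panels, and those of Rps4y2 and Rpl39l1 cross the dotted lines at some doses.

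Rplp0, Rpl19 and Rpl13a are large subunit proteins used as reference genes in quantitative PCR, and Rplp0 also forms the base of the P stalk that binds elongation factors. In the vehicle group Rplp0 had a lowest level of 12.17, a median of 12.28 and a highest level of 12.33, and at 641 mg/kg it had 12.10, 12.29 and 12.33. The ranges overlapped nearly whole, with a fold change of 0.991 (95% interval 0.908 to 1.08). Its lowest fold change was 0.930, at 0.641 mg/kg, and its highest 1.03, at 6.41 mg/kg.

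For Rpl19 the vehicle arrays ranged from 12.50 to 12.64 around a median of 12.57, and those at 641 mg/kg from 12.41 to 12.62 around 12.53. Its fold change was 0.971 (95% interval 0.912 to 1.03), and 0.962 to 1.01 at the other doses. Rpl19 had the second smallest residual SD of all members, 0.06 on the log2 scale. It came after Rps29 (0.04) and before Rps15a (0.071), Rps3 (0.075) and Rpl21 (0.077). Rpl13a ran from 11.71 to 11.79 (median 11.75) in the vehicle group and from 11.60 to 11.85 (median 11.75) at 641 mg/kg. Its fold change there was 0.995 (95% interval 0.918 to 1.08), while the largest differences were at 0.06 mg/kg (1.07-fold) and at 64.1 mg/kg (0.932). The lowest array of Rpl13a, at 64.1 mg/kg, had 11.42.

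Rpl5 and Rpl11 form with 5S rRNA the particle that binds Mdm2 and so links the ribosome to p53. Rpl5 had a vehicle range of 12.46 to 12.67 (median 12.57) and a range of 12.33 to 12.68 (median 12.54) at 641 mg/kg, with a fold change of 0.976 (95% interval 0.891 to 1.07). Rpl11 had a vehicle range of 12.07 to 12.16 (median 12.12) and 12.01 to 12.24 (median 12.15) at 641 mg/kg, with a fold change of 1.01 (95% interval 0.935 to 1.08). In both genes the treated arrays spread to either side of the vehicle range.

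Rps6, the small subunit substrate of S6 kinase, ranged from 12.32 to 12.47 (median 12.39) in the vehicle group and from 12.24 to 12.55 (median 12.43) at 641 mg/kg. Its fold change was 1.02 (95% interval 0.943 to 1.11). Rpsa, which sits at the mRNA exit of the small subunit and also serves as a laminin receptor, had 11.82 to 11.89 (median 11.88) in the vehicle group and 11.79 to 12.02 (median 11.95) at 641 mg/kg. Of the 38 high-level members it had the largest difference upward at 641 mg/kg, with a fold change of 1.04 (95% interval 0.960 to 1.13), and the ranges overlapped.

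The largest differences downward at 641 mg/kg among the high-level members were in 3 small subunit proteins. Rps15 and Rps23 lie near the decoding centre. Rps15 went from a vehicle range of 11.78 to 11.97 (median 11.90) to 11.65 to 11.95 (median 11.80), with a fold change of 0.956 (95% interval 0.878 to 1.04) and an adjusted p of 0.777 in limma. Rps23 went from 12.72 to 12.83 (median 12.76) to 12.54 to 12.84 (median 12.72), with a fold change of 0.964. Rps28, at the mRNA exit, went from 11.56 to 11.68 (median 11.62) to 11.43 to 11.69 (median 11.56), with a fold change of 0.958. In all 3 the treated arrays covered the vehicle range or most of it.

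Groups of members by place in the ribosome had small differences from vehicle. The 6 measured proteins around the exit of the nascent chain, among them Rpl19, Rpl22, Rpl26 and Rpl35, had log2 differences from -0.07 to 0.05 at 641 mg/kg. The lowest of these was that of Rpl39, whose probe set had a low signal (5.46). Of a list of genes mutated in Diamond-Blackfan anaemia, an inherited failure of red cell formation, 6 were measured. These were Rpl5, Rpl11, Rpl26, Rpl35a, Rps24 and Rps29, the list is not complete, and their differences ran from -0.05 to 0.03. Rps3, at the mRNA entry, was at 0.02. As subunits, the 16 small subunit members had a median of 0.01 and the 34 large subunit members a median of 3.38e-03 at this dose. Of these, 13 small and 30 large subunit members had an interval within 1.2-fold.

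In the F test over the 5 doses 1 member passed the threshold, the pseudogene symbol Rpl37-ps2, with an adjusted p of 0.0406 in limma; 0.773% of all probe sets passed it. At an unadjusted p under 0.05 there were 4 members, against 8.24% of all probe sets. Rpl37-ps2 had a lowest, median and highest level of 4.46, 4.56 and 4.66 in the vehicle group. At 6.41 mg/kg these were 4.24, 4.39 and 4.52, and at 641 mg/kg 4.60, 4.69 and 4.80, so the treated groups lay on opposite sides of vehicle and overlapped its range. Its fold change at 6.41 mg/kg was 0.892 (95% interval 0.823 to 0.966), with an adjusted p of 1 in limma. At 641 mg/kg the fold change was 1.10 (1.02 to 1.19), with an adjusted p of 0.287. The F call was lost in 20 of 36 fits with 1 array left out (adjusted p from 0.0186 to 0.148), with the replicate number as a block (0.0974) and with a variance trend (0.0968). The probe set's signal was below the array medians.

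No member passed the threshold for a slope over the dose ranks 0 to 5 in limma, where 1.35% of all probe sets did, and none had an unadjusted p under 0.05, against 10.4% of all probe sets. The 50 slopes ran from -0.02 to 0.03 log2 units per dose step, and the smallest adjusted p was 0.590.

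Among the paralogs, Rps27l had 8.47 to 8.72 (median 8.64) in the vehicle group and 8.37 to 8.95 (median 8.77) at 641 mg/kg. Its fold change was 1.08 (95% interval 0.967 to 1.21, adjusted p of 0.647 in limma), with 5 of 6 treated arrays above the vehicle mean, and its differences at the lower doses were also above 0. Rpl7l1, which works in ribosome assembly, had 8.49 to 8.72 (median 8.57) in the vehicle group and 8.51 to 8.75 (median 8.65) at 641 mg/kg. Its fold change was 1.04 (95% interval 0.946 to 1.14), beside 1.04 (0.960 to 1.12) for Rpl7 itself. Rpl3l had group means from 3.33 to 3.47 and a fold change of 1.01 (0.914 to 1.12) at 641 mg/kg, with 1.01 (0.918 to 1.11) for Rpl3.

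Rps4y2 and Rpl39l1 had the widest spread. Rps4y2 ranged from 6.63 to 7.86 (median 7.46) on the vehicle arrays and from 6.76 to 8.00 (median 7.46) at 641 mg/kg. Its residual SD of 0.43 stood against a median of 0.0947 over members, and its interval at 641 mg/kg ran from 0.778 to 1.495. Rpl39l1 ranged from 2.92 to 3.94 (median 3.11) in the vehicle group and from 2.91 to 4.91 (median 3.07) at 641 mg/kg. Only 1 of its 6 arrays at 641 mg/kg lay above the vehicle mean, and the fold change was 1.10 (95% interval 0.813 to 1.48). Without that array, replicate 2, the log2 difference turned from 0.13 to -0.18. Rpl26l1 had 4.26 to 4.79 (median 4.62) in the vehicle group and 4.48 to 5.03 (median 4.66) at 641 mg/kg, with a fold change of 1.10 (95% interval 0.948 to 1.27).

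Of the core members with low signals, Rpl39, an exit tunnel protein, had 5.41 to 5.58 (median 5.48) in the vehicle group and 5.26 to 5.50 (median 5.44) at 641 mg/kg, with a fold change of 0.955 (95% interval 0.887 to 1.03). Rpl30 had 3.29 to 3.78 (median 3.57) and 3.53 to 3.99 (median 3.69), with a fold change of 1.12 (95% interval 1.01 to 1.25) and an adjusted p of 0.371 in limma. The brighter probe sets that list Rpl30 among several symbols had log2 differences of -0.04 and -0.01 at 641 mg/kg. The pseudogene symbol Rps4x-ps1, the lowest signal of all, had a difference below 0 at each dose, from -0.08 at 0.641 mg/kg to -0.22 at 0.06 mg/kg, where its unadjusted p was 0.00471 and its adjusted p 0.999 in limma.

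Averaged over the 50 members, the arrays of the vehicle group lay close together, from 10.39 to 10.42, with a mean of 10.41 ± 0.02 (SD, n = 6). In order of dose, the means of the treated groups were 10.45 ± 0.08, 10.36 ± 0.04, 10.42 ± 0.09, 10.38 ± 0.05 and 10.42 ± 0.10 (SD, n = 6 each). They differed from vehicle by 0.04, -0.05, 0.02, -0.03 and 0.01. Leaving out 1 array could turn the sign of the differences at 6.41 and 641 mg/kg. At 6.41 mg/kg the difference was -0.0083 without replicate 5 of that dose and 0.046 without its replicate 1. At 641 mg/kg it was -0.012 without replicate 2 of that dose and 0.044 without its replicate 6. At 641 mg/kg the arrays ran from 10.26 to 10.54, with 1 of 6 inside the vehicle range, 2 below and 3 above it. The group with the lowest mean, 0.641 mg/kg, had 5 of 6 arrays below the vehicle range and none above it. Averaged over the 38 high-level members, the vehicle arrays ran more widely, from 12.11 to 12.19. Against that range 3 arrays at 641 mg/kg lay inside, 1 below and 2 above. At 0.641 mg/kg 2 lay inside it and 4 below. These averages got no test, since the members were chosen with results of the data known. Each treated group had a larger SD than the vehicle group, a difference between groups that was not tested. For the 38 high-level members the median SD was 0.0484 in the vehicle group and 0.0639 to 0.114 in the treated groups. Over probe sets with a mean of at least 10 it was 0.0754 and 0.0767 to 0.0858. The intervals of the fit rest on 1 spread shared by all groups.

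**Figure D3:**
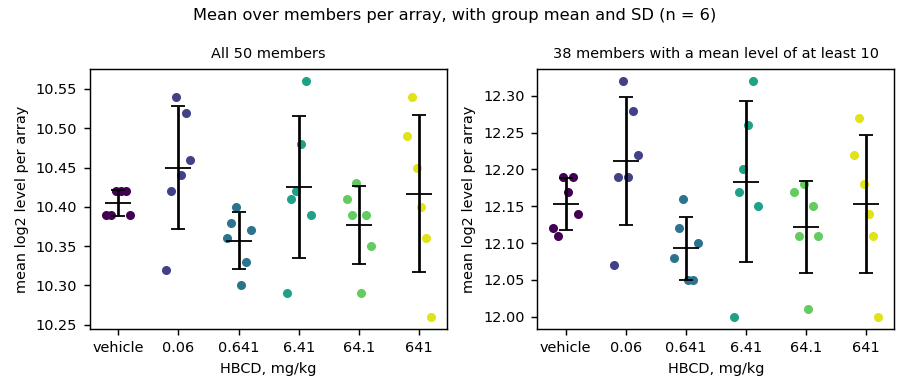
Mean log2 level per array (points) over all 50 members (left) and over the 38 with a mean level of at least 10 (right), by dose group, with the group mean and SD (bars, n = 6). The vehicle arrays of the left panel lie between 10.39 and 10.42, and the groups at 6.41 and 641 mg/kg reach to either side of them.

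The 38 high-level members shared much of their variation from array to array, while the other 12 shared little. The median residual SD within groups was 0.0947 for the 50 members and 0.0899 for the 38 with high levels, against 0.142 over all probe sets and 0.0864 over those with a mean of at least 10. The spread of the 38 was thus close to that of other bright probe sets. Correlations of the residuals are a description over the same 36 arrays and their shared RNA samples. The mean r over the 703 pairs of high-level members was 0.716, and all 703 were above 0. It was 0.0415 over the 66 pairs of the other 12 members, 0.0136 over probe sets with a mean of at least 10 and 0.00117 over all probe sets.

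Once the mean of the other 37 was subtracted on each array, the median SD of a high-level member fell to 0.05, with a range from 0.01 (Rpl26) to 0.10 (Rpl41). Rpl26 followed the mean of the other members most closely, with r = 0.961 over 36 arrays, then Rpl27a (0.928), Rpl11 (0.904) and Rpl4 (0.902). Rplp0 was at 0.872 and Rps6 at 0.885. Rpl41 (0.487), Rpl18 (0.557) and Rpl13a (0.603) followed it least among the high-level members. Values below 0 were found for Rps13 (-0.227), the pseudogene symbol Rpl37-ps2 (-0.0591) and Rpl3l (-0.0517).

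**Figure D4:**
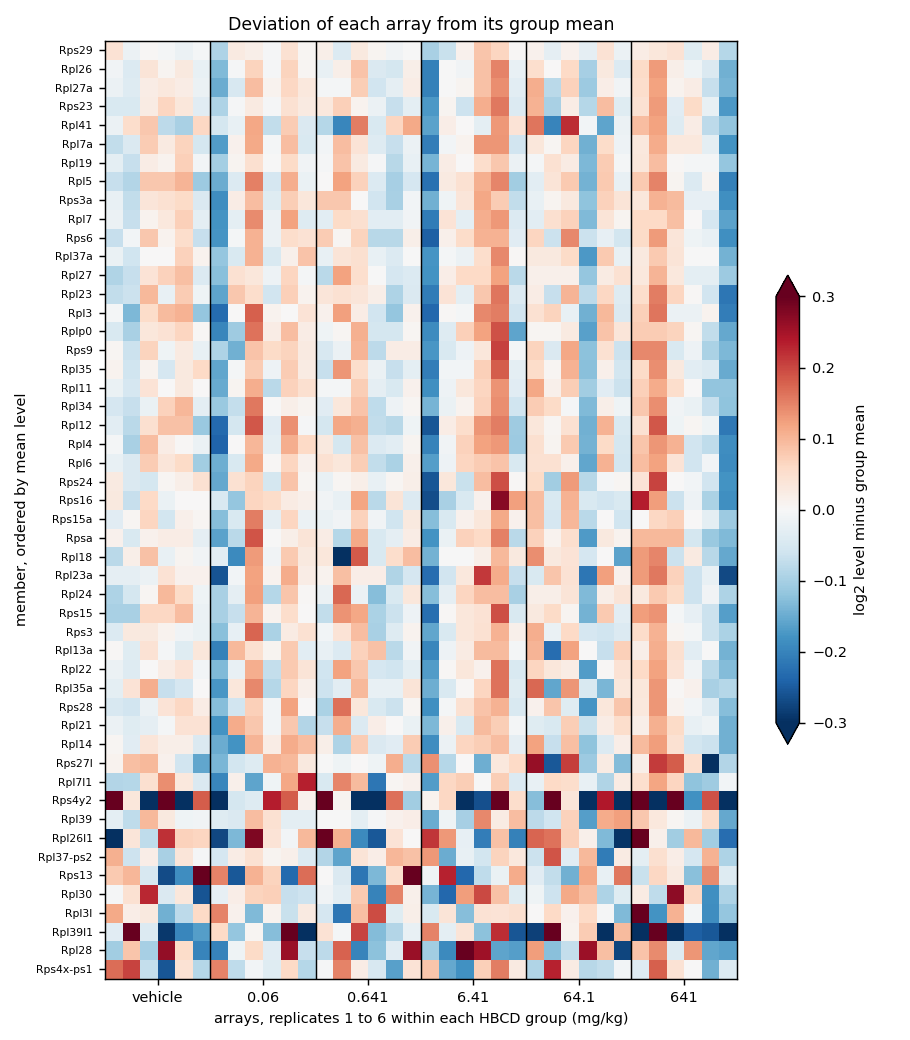
Deviation of each array from its group mean in log2 units (colour, blue below and red above, limited at 0.3) for the 50 members (rows, by mean level) on the 36 arrays (columns, by dose group and replicate). Columns of 1 colour run through the upper 38 rows, such as replicate 1 at 6.41 mg/kg below and replicate 5 above its group mean, and do not continue through the lowest rows.

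Outside the family, the genes whose residuals were most like the mean of the members over the 36 arrays were Rack1 (r = 0.948), Eef1g (0.903), Eif3f (0.863), Phgdh (0.845) and Eef1b2 (0.845). Rack1 is a small subunit protein that the symbol rule leaves out, Eef1g and Eef1b2 are parts of the elongation factor 1 complex, Eif3f is a subunit of initiation factor 3, and Phgdh makes serine. Rack1 had a fold change of 0.990 (95% interval 0.911 to 1.08) at 641 mg/kg.

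Other genes of the pathway were counted in lists chosen by function. At 641 mg/kg 1.65% of all probe sets were called and 11.4% had an unadjusted p under 0.05 in limma. Of 16 genes for elongation factors and other TOP transcripts 11 were measured, and 1 was called at 641 mg/kg: Nap1l1, a histone chaperone, rose 1.29-fold (95% interval 1.18 to 1.40, adjusted p of 2.37e-04 in limma), while the list's median log2 difference was -0.03. Eef1a1, which brings aminoacyl-tRNA to the ribosome, had a fold change of 0.988 (0.927 to 1.05), and Eef2, which moves the ribosome along, 0.954 (0.844 to 1.08). Of 32 genes for RNA polymerase I and rRNA processing none was called in limma, and 6 had an unadjusted p under 0.05, all above 0. The smallest p in that list was that of Ltv1, which acts in small subunit assembly, with a fold change of 1.15 (1.04 to 1.28, adjusted p of 0.196). None of 13 measured genes of mTORC1 and TOP control was called in limma or had an unadjusted p under 0.05 at this dose. Deptor had the smallest p of that list, with a fold change of 1.09 (0.996 to 1.19, adjusted p of 0.465 in limma). Mtor itself had a fold change of 1.02 (0.925 to 1.12) and Larp1 0.960 (0.876 to 1.05).

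Both measured genes of the Myc and p53 list were called at 641 mg/kg. Myc, a transcription factor that drives ribosome production, rose from a vehicle mean of 7.36 ± 0.64 to 8.56 ± 0.50 (SD, n = 6), a 2.30-fold change (95% interval 1.496 to 3.55, adjusted p of 0.0322 in limma). Mdm2, the ubiquitin ligase of p53, rose from 7.40 ± 0.17 to 7.78 ± 0.25 (SD, n = 6), 1.30-fold (1.15 to 1.47, adjusted p of 0.0128 in limma). In the same arrays the 38 high-level ribosomal protein genes had log2 differences from -0.06 to 0.06. Of 73 mitochondrial ribosomal protein genes, which are coded in the nucleus but serve another ribosome, 1 was called, a share near the 1.65% of all probe sets. That gene, Mrpl49, rose 1.19-fold (1.09 to 1.29, adjusted p of 0.0225 in limma), and the list's median was 0.01. None of these lists had a call at the lower doses in limma, where the unadjusted p was under 0.05 for at most 2 genes of a list. At those doses 4.13% to 5.94% of all probe sets passed that limit.

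The tissue label was checked on 6 hepatocyte genes, Alb, Apoa1, Ttr, Serpina1, Fgb and Cps1, whose means lay between 12.95 and 14.52. Their average was 13.69 ± 0.02 in the vehicle group and 13.61 ± 0.03 at 641 mg/kg (SD, n = 6), where all 6 arrays were below the vehicle range and none of the 6 genes was called in limma. The average of 8 measured Kupffer cell and macrophage genes was 8.47 ± 0.13 in the vehicle group and 8.34 ± 0.19 at 641 mg/kg, and lowest at 64.1 mg/kg, 8.01 ± 0.38 (SD, n = 6). Over 10 marker lists of liver, blood and pancreas cell types, the only call at 641 mg/kg was 1 of 5 T and NK lymphocyte genes, which fell. At this dose 1.65% of all probe sets were called. The difference between 3′ and 5′ control probe sets averaged 1.17 for actin in the vehicle group and 1.14 at 641 mg/kg, and 0.00 and -0.02 for Gapdh. The part of cell makeup and RNA integrity in the members' values was not tested beyond a fit with these control differences, which called no member at any dose.

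A further 36 probe sets are listed under several symbols of which at least 1 belongs to the family, and they were not given to a gene. None was called at any dose in limma. At 0.06 mg/kg 4 had an unadjusted p under 0.05, all above 0, where 4.17% of all probe sets passed. At 641 mg/kg there were 2, against 11.4%, and at the other doses none. In order of dose, 33, 34, 35, 36 and 34 had an interval within 1.2-fold, and all 36 kept within 1.5-fold. The largest difference upward was that of the probe set listing Rpl22l1 (mean 11.44), 0.20 at 0.06 and at 641 mg/kg. The largest downward at 641 mg/kg was -0.12, where Rps27 is listed (mean 12.27). Over the 36 probe sets the median log2 difference at 641 mg/kg was -1.32e-03, and the residuals correlated at a mean r of 0.642. They hold the only signals here for Rps18, Rpl32 and Rplp1 among others, with means of 12.65, 12.52 and 12.41 and log2 differences of 0.00, 0.01 and -0.05 at 641 mg/kg. Among the probe sets of members with more than 1, 2 that did not stand for the symbol had an unadjusted p under 0.05 at 641 mg/kg. The second for Rpl7 had a mean level of 8.80 and a fold change of 1.18 (95% interval 1.06 to 1.33, adjusted p of 0.146 in limma). That for Rps24 had a mean level of 4.86 and a fold change of 1.31 (1.00 to 1.72, adjusted p of 0.427).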

How the data were processed

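The authors deposited log2 expression values per probe set, for which the submitters' processing notes name the tools RMA and affy. RMA makes arrays share a distribution, so values are relative to the whole array and a shift common to all transcripts cannot be seen. Tool versions are not given in the sources used here. Of 31099 probe sets, 57 controls were left out and 31042 tested. Of these 20826 had 1 symbol, 436 several and 9780 none. Detection calls and saturation marks were not used, and precision is limited by how many arrays each group has.

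limma 3.58.1 in R 4.3.3 was fitted with 1 factor, the dose group, to the 36 arrays together, two-sided, for each dose against vehicle, for the F test over 5 doses and for a linear contrast over dose ranks. P-values were adjusted by Benjamini-Hochberg over all probe sets. The design text names R/maanova at a false discovery rate of 5%, which was not run. Intervals are those of the moderated fit, and their limits against 1.2-, 1.5- and 2-fold bound the change. The fitting steps were checked on simulated data with independent noise per probe set and changes placed only outside the members. That check does not cover deviations shared among members, so it does not bear on the counts of members within a limit. Within groups, correlations between arrays were 0.991 to 0.997, and no arrays were identical.

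Named were members called in any test, the 5 largest rises and falls at 641 mg/kg and 2 each way at other doses, the 5 highest and lowest levels and residual SDs, the 3 widest intervals, fixed members, and the member of smallest p of each pathway list. Members with the closest correlation or the widest bound were named after their values were seen. The members and lists were chosen with earlier results of these data known. Protein sequences were not used here. Alternatives covered normalization, filter, variance model, array weights, probe set choice, the replicate block and leaving out each array.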

Additional observations from a re-analysis of the deposited data

Results flagged for a closer look

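Of 198 groups of 6 arrays, 6 for each named member and 6 for the mean over members, 10 held a value far from the other 5, a gap that chance gives in about 1 in 20 groups. In the group at 64.1 mg/kg, replicate 4 was the low value for 4 members: Rpl19 at 12.40 (others 12.53 to 12.61), Rplp0 at 12.09 (others 12.26 to 12.34), Rpsa at 11.71 (others 11.89 to 11.95) and Rpl22 at 11.52 (others 11.69 to 11.75). These 4 share the array, on which the mean over all members was also the lowest of its group, 10.29. Rpl26 was low at 12.72 in replicate 1 at 0.06 mg/kg (others 12.85 to 12.92), and Rps29 was high at 13.10 in replicate 1 of the vehicle group (others 13.04 to 13.06). Of the low-signal members, Rpl39l1 was high in replicate 2 of the vehicle group at 3.94 (others 2.92 to 3.18) and in replicate 2 at 641 mg/kg at 4.91 (others 2.91 to 3.10). Rps4x-ps1 was high in replicate 2 at 64.1 mg/kg at 2.34 (others 2.02 to 2.13), and Rpl3l was low in replicate 6 of that group at 3.29 (others 3.42 to 3.48). Their causes were not tested.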

How the results depend on the processing

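No member was called at any dose, nor for the slope, in any alternative run, so there was no called dose value that could reverse. Widened by Bonferroni, the share of members within 1.2-fold was 18%, 20%, 40%, 36% and 40% in order of dose, against 88%, 90%, 88%, 90% and 86% for single 95% intervals. With the second probe set of the 6 genes that have one, the mean log2 difference over members was 0.049 at 64.1 mg/kg and 0.13 at 641 mg/kg. The number of members passing the F test was 0 in place of 1 with the replicate block, with the filter on dim probe sets (41 members), with a variance trend and robust moderation, with the second probe set, without pseudogene symbols (48 members) and, added after the data were seen, with the 38 members of mean level 10 or more. It was 0 to 1 with 1 array left out. Uncalled named values changed sign 24 times. That count covers 510 comparisons with alternatives and, outside the 510, the lowest and highest value of each of 48 named values with 1 array left out. Of 90 same-numbered pairs 14 correlated over 0.1, and 6 of 36 arrays correlated best with an array of their own number. No share for differently numbered pairs is given beside these, so they do not settle whether the replicate numbers mark a pairing. The replicate block called 500 in place of 511 probe sets at 641 mg/kg and 12 in place of 13 at 64.1 mg/kg, and no member at any dose. Signals near or below the array medians limit what most of the 12 lower symbols can show, but not Rps27l, Rpl7l1 and Rps4y2, which lay above them.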
